A study of Homo sapiens with 20 samples.

Results

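HGC27 and SNU16 are the 2 gastric cancer cell lines of this panel that carry neither Epstein-Barr virus nor the CpG island methylator phenotype (CIMP), and the comparison described here is the response of HGC27 to decitabine (DCB) minus that of SNU16. For each gene, the DCB minus DMSO difference on log2(value + 1) was formed in each line, and the SNU16 difference was subtracted from the HGC27 difference. The comparison rests on 8 of the 20 libraries of the series, and 27350 of 60232 genes entered the test, those with a summed value above 10 across all 20. The 4 groups were HGC27 cells given DCB, HGC27 cells given DMSO, SNU16 cells given DCB and SNU16 cells given DMSO, with 2 libraries each. DCB was given at 7.5 µM for 72 h, DMSO was the vehicle, and all lines carry the genotype label wild type. Per the labels, HGC27 grew in EMEM with glutamine and non-essential amino acids and SNU16 in RPMI, so the line and its medium cannot be told apart. Whether the 2 libraries of a group came from separate cultures is not given in the sources used here, so p-values rest on a spread among libraries that may be technical.

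DCB is a cytidine analog that is built into DNA during replication, where it traps DNA methyltransferases, so that methylation is lost as cells divide. Genes silenced by promoter methylation can then be transcribed, and which genes these are depends on what a line had silenced beforehand. SNU16 is a line that grows partly in suspension and keeps many epithelial genes on. HGC27 is an undifferentiated line with mesenchymal features, and this was checked first against marker genes.

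The labelled lines differed in their markers as follows. VIM, the intermediate filament of mesenchymal cells, had normalized values of 25638 and 25903 in HGC27 DCB and 71737 and 72756 in HGC27 DMSO, against 10.6 and 15.4 in SNU16 DCB and 0 and 1.94 in SNU16 DMSO. EPCAM, an adhesion molecule of epithelial cells, stood at 38.5 and 22.4 in HGC27 DCB and 24.3 and 32.4 in HGC27 DMSO, against 4772 and 4629 in SNU16 DCB and 4866 and 4724 in SNU16 DMSO. FGFR2, a receptor kinase gene known to be amplified in SNU16, was at 232 and 148 in HGC27 DCB and 167 and 244 in HGC27 DMSO, and at 45640.0 and 45888 in SNU16 DCB and 39906 and 39305 in SNU16 DMSO. The median level of 60 epithelial genes on log2(value + 1) was 3.933 and 4.33 in HGC27 DCB and 2.756 and 2.97 in HGC27 DMSO, against 8.871 and 8.873 in SNU16 DCB and 8.798 and 8.866 in SNU16 DMSO. Epithelial genes were thus low in HGC27 under both treatments. In cells sampled in bulk, fewer cells with a transcript and less of it per cell cannot be told apart. Totals of the normalized values ran from 7764408 to 9100101 over these 8 libraries, and across genes the pair of libraries in a group had correlations of 0.969 to 0.98 over the 10 groups. The HGC27 DMSO libraries were the lowest of the series in the median of G1/S genes, by a narrow margin. Their median level over 66 G1/S and DNA replication genes was 7.66 and 7.667 on log2(value + 1), below the 7.716 to 9.328 of the other 18 libraries of the series. The nearest were the SNU719 DCB libraries, at 7.745 and 7.716. For 71 G2/M and mitosis genes, HGC27 DMSO stood at 8.091 and 8.203, within the 7.391 to 9.39 of the other 18.

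DCB moved more genes in HGC27 than in SNU16, and the differences between the lines were mostly genes that rose in HGC27 and did not pass the test in SNU16. At a Benjamini-Hochberg adjusted p below 0.05 (limma), 4019 genes rose (14.7%) and 2470 fell (9.03%) in HGC27, and 1230 rose (4.5%) and 641 fell (2.34%) in SNU16. The difference itself was called at the same adjusted p with an absolute value above 2 on log2(value + 1). A response is called larger in HGC27 where HGC27 minus SNU16 was positive, also where HGC27 was level and SNU16 fell, and smaller where it was negative. The response was larger in HGC27 for 732 genes (2.68% of those tested) and smaller in HGC27 for 484 (1.77%). Without the limit on size the counts were 2084 (7.62%) and 1483 (5.42%). The median difference over all genes tested was 0.

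Of the 732 genes with the larger response in HGC27, 639 (87.3%) rose in HGC27 and were not called in SNU16, 23 fell in SNU16 without a call in HGC27, 17 rose in both lines and 15 rose in HGC27 and fell in SNU16. The other 38 were called in neither line alone. The 484 genes with the smaller response in HGC27 were more mixed. Of these, 245 (50.6%) rose in SNU16 without a call in HGC27, 119 (24.6%) fell in HGC27 without a call in SNU16, 39 fell in HGC27 and rose in SNU16, 17 rose in both, and 64 were called in neither.

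**Figure D1:**
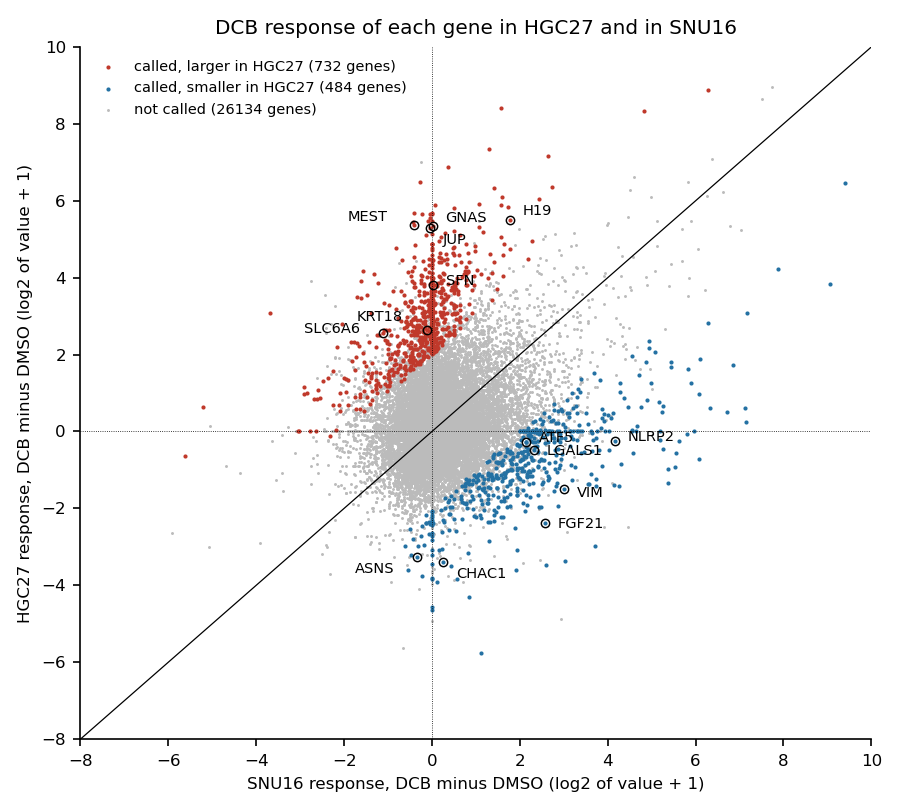
Each point is 1 of the 27350 genes, with its SNU16 response on the horizontal axis and its HGC27 response on the vertical axis, both DCB minus DMSO on log2(value + 1), and the diagonal marks equal responses. The 732 genes called larger in HGC27 gather along the vertical axis near a SNU16 response of 0, and the 484 called smaller spread to the right and below. Positions of genes listed at 0 in a group depend on the pseudocount of 1.

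The group levels of the same genes are given as a description of the selection, because the difference was called on these values. The matching shares over all genes tested were not counted. Among the 732 genes with the larger response in HGC27, the median normalized value was 17.1 in HGC27 DCB and 0.639 in HGC27 DMSO, against 5.71 in SNU16 DCB and 8.69 in SNU16 DMSO. HGC27 DMSO was listed at 0 for 292 of them. For 325 of the 732, the SNU16 DMSO mean was at least as high as the HGC27 DCB mean. A further 145 were at 0 in all 4 SNU16 libraries. Among the 484 genes with the smaller response, the median was 10.4 in HGC27 DCB and 23.7 in HGC27 DMSO, against 13.6 in SNU16 DCB and 0.969 in SNU16 DMSO. SNU16 DMSO was listed at 0 for 168 of these, and for 290 the HGC27 DMSO mean was at least as high as the SNU16 DCB mean.

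GNAS, SFN, JUP and KRT18 were among the genes with the smallest adjusted p for a larger response in HGC27, and in each SNU16 was high under both treatments. Replication genes, described further on, were also among those with the smallest adjusted p. GNAS (chromosome 20, 58839718 to 58911192 of GRCh38), which encodes the stimulatory G protein alpha subunit and lies in an imprinted locus, had normalized values of 955 and 801 in HGC27 DCB, against 21.5 and 19.7 in HGC27 DMSO. In SNU16 it stood at 4749.6 and 4930.1 in DCB, against 4902 and 4614 in DMSO. The HGC27 groups did not overlap and the SNU16 groups did, and the difference of responses was 5.32 ± 0.0946 (standard error, adjusted p = 3.73e-13). Overlapping transcripts share this locus, so which of them carried the reads was not resolved. In the other lines GNAS averaged 7714 in YCCEL1 DCB and 8260 in YCCEL1 DMSO, 6912 in SNU719 DCB and 6586 in SNU719 DMSO, and 10850 in AGS DCB and 11480 in AGS DMSO. HGC27 DMSO had the lowest mean of the 10 groups, 20.6, and HGC27 DCB the next lowest, 878.

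JUP (chromosome 17, 41754604 to 41786931), junction plakoglobin, links cadherins and desmosomes to the cytoskeleton. It was at 348 and 307 in HGC27 DCB, against 6.16 and 8.62 in HGC27 DMSO, and at 2681 and 2659 in SNU16 DCB, against 2768 and 2714 in SNU16 DMSO. The difference was 5.34 ± 0.148 (adjusted p = 3.03e-11), and the HGC27 DCB values remained below those of SNU16. SFN (chromosome 1, 26863149 to 26864456), the epithelial 14-3-3 sigma protein and a p53 target, had 122 and 135 in HGC27 DCB, against 8.06 and 8.46 in HGC27 DMSO. Its SNU16 values were 910.5 and 919.7 in DCB, against 929 and 869 in DMSO, and the difference was 3.78 ± 0.102 (adjusted p = 2.45e-11). CRACR2B, a calcium-binding regulator of store-operated calcium entry, was listed at 0 in both HGC27 DMSO libraries and at 57.4 and 43.6 in HGC27 DCB. In SNU16 it had 934 and 998 in DCB, against 1365 and 1218 in DMSO (adjusted p of the difference = 6.17e-11).

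Some other genes with a small adjusted p on this side had the same form of values. S100A6, a calcium-binding protein, had 90.6 and 76.4 in HGC27 DCB, against 17.99 and 17.9 in HGC27 DMSO, and 5288 and 5248 in SNU16 DCB, against 6691 and 6676 in SNU16 DMSO (difference 2.49 ± 0.0828). CTSZ, the lysosomal protease cathepsin Z, had 50.6 and 39.3 in HGC27 DCB, against 2.51 and 3.13 in HGC27 DMSO, and 1066 and 1066 in SNU16 DCB, against 1065 and 1115 in SNU16 DMSO (difference 3.61 ± 0.149). RAB4A, a small GTPase of endosome recycling, had 54.1 and 46.997 in HGC27 DCB, against 0 and 0.377 in HGC27 DMSO, and 365 and 339.8 in SNU16 DCB, against 423 and 535 in SNU16 DMSO (difference 5.89 ± 0.25). In these 3 genes the SNU16 values exceeded the HGC27 DCB values by several fold. MDFI, an inhibitor of myogenic bHLH factors, differed from them in that HGC27 DCB reached the SNU16 range, with 240.3 and 202 in HGC27 DCB, against 16.998 and 19.02 in HGC27 DMSO, and 160.2 and 168 in SNU16 DCB, against 205 and 199 in SNU16 DMSO (difference 3.84 ± 0.211). CDC42EP1, an effector of the GTPase CDC42, differed by 3.62 and the transcription factor TFCP2 by 4.26.

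Of 60 tested epithelial junction and identity genes, the response was larger in HGC27 for 19 (31.7%) and smaller for 3, against 7.62% and 5.42% of all genes tested and 13.6% and 9.34% of the 10569 genes with a mean of at least 100 over the 4 groups. The median difference of the list was 0.72, against 0 over all genes tested. With the 8 libraries alone in the fit, 11 members were larger and 1 smaller. In HGC27, 28 members rose and 3 fell, and in SNU16, 6 rose and 1 fell. CDH1, E-cadherin, had 49.2 and 38.97 in HGC27 DCB, against 13.5 and 7.72 in HGC27 DMSO, and 2622 and 2939 in SNU16 DCB, against 2829.6 and 4044 in SNU16 DMSO, a difference of 2.28 ± 0.346 (adjusted p = 5.30e-04). ESRP2, an epithelial splicing regulator, had 44.5 and 36.5 in HGC27 DCB, against 5.75 and 2.56 in HGC27 DMSO (difference 3.28 ± 0.33, adjusted p = 1.49e-05). Its relative ESRP1 went the other way, with 1.83 and 1.27 in HGC27 DCB, against 7.13 and 20.7 in HGC27 DMSO, and 1044 and 1119 in SNU16 DCB, against 1176 and 1181 in SNU16 DMSO (difference -2.27 ± 0.41, adjusted p = 0.00208). PPL, the desmosomal plakin periplakin, and GJB2, a gap junction connexin, had differences of 2.15 and 4.31.

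KRT18, a keratin of simple epithelia, had 148 and 139.9 in HGC27 DCB, against 19.7 and 24.8 in HGC27 DMSO, and 7199.5 and 6939 in SNU16 DCB, against 7807 and 7472 in SNU16 DMSO, a difference of 2.76 ± 0.102 (adjusted p = 5.24e-10). Its partner KRT8 differed by 2.20 ± 0.255 (adjusted p = 5.32e-05). KRT7 was at 17.4 and 19.4 in HGC27 DCB and 41.1 and 41.6 in HGC27 DMSO, and its difference of -0.73 did not pass (adjusted p = 0.0756). KRT18 and KRT8 have many processed pseudogenes, so their values are uncertain where reads could be shared. KRT13, a keratin of stratified epithelia, was at 0 in HGC27 DCB and at 2.92 and 0 in HGC27 DMSO, and at 36.000 and 45.9 in SNU16 DCB, against 0 in both SNU16 DMSO libraries (adjusted p = 9.25e-05). Of 27 tested keratins, 3 had the larger and 3 the smaller response in HGC27 (11.1% each way), against 7.62% and 5.42% of all genes tested. Only 16 keratins had a sum above 10 over the 8 libraries.

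Not every gene that was low in HGC27 and abundant in SNU16 rose with DCB. REG4, a secreted lectin of gastrointestinal mucosa, was at 0 in both HGC27 DCB libraries and at 5.04 and 9.03 in HGC27 DMSO, against 7225 and 7365 in SNU16 DCB and 8286 and 8196 in SNU16 DMSO (adjusted p = 2.02e-06). EPCAM, with the values given above, had a difference of 0.10 ± 0.24 (adjusted p = 0.873). CDH17, an intestinal cadherin, was at 0 and 0.78 in HGC27 DCB, against 7.08 and 8.63 in HGC27 DMSO, and at 2380.4 and 2332 in SNU16 DCB, against 2494 and 3115 in SNU16 DMSO (difference -2.48 ± 0.35, adjusted p = 2.95e-04). Of 79 tested gastric and intestinal mucosa genes, 5 (6.33%) had the larger response in HGC27 and 11 (13.9%) the smaller, against 7.62% and 5.42% of all genes tested. These counts were 8 and 8 without HGC27 DCB replicate 2, and 5 and 7 without SNU16 DCB replicate 2. The 5 included CDX2, the intestinal homeobox factor, with 51.2 and 42.6 in HGC27 DCB, against 14.3 and 10.8 in HGC27 DMSO, and 490.5 and 423 in SNU16 DCB, against 785 and 652 in SNU16 DMSO (difference 2.48 ± 0.289).

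**Figure D2:**
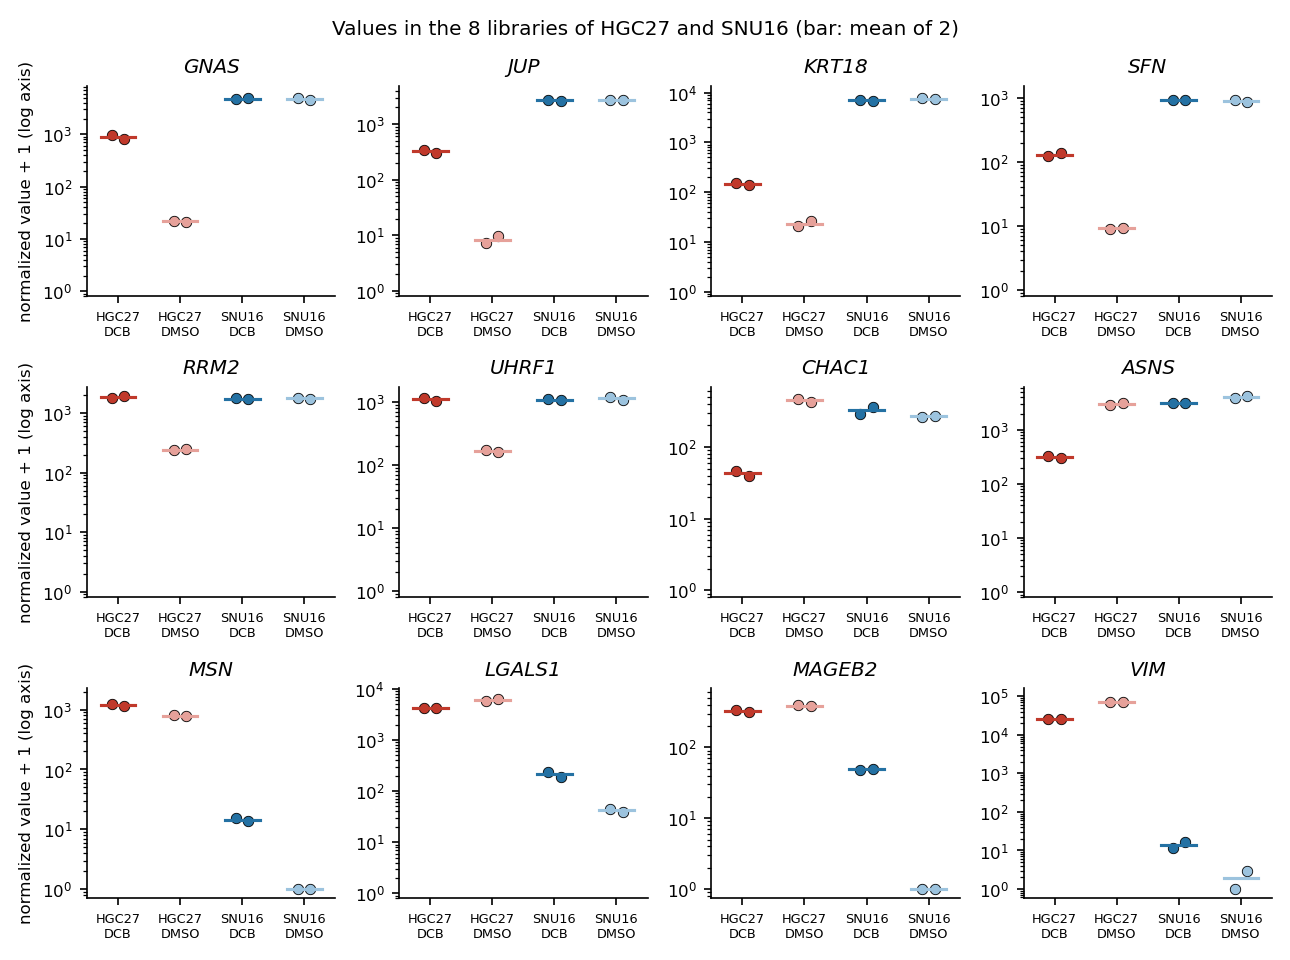
Normalized value + 1 on a log axis in each of the 8 libraries for 12 genes named in the text, with a bar at the mean of the 2 libraries of a group. GNAS, JUP, KRT18, SFN, RRM2 and UHRF1 lie higher in HGC27 DCB than in HGC27 DMSO with level SNU16 groups, CHAC1 and ASNS lie lower in HGC27 DCB, and MSN, LGALS1, MAGEB2 and VIM lie higher in SNU16 DCB than in SNU16 DMSO.

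The promoters of genes on either side of the comparison are shown to give the CpG content that DNA methylation could act on. Each is the 250 bases before the start of the canonical GENCODE 44 transcript on GRCh38, in the direction of transcription, with every CG in capitals. The first 2 belong to genes with the larger response in HGC27. JUP lies at chr17:41786712-41786961 on the minus strand with 17 CG and SFN at chr1:26862899-26863148 on the plus strand with 3.
JUP: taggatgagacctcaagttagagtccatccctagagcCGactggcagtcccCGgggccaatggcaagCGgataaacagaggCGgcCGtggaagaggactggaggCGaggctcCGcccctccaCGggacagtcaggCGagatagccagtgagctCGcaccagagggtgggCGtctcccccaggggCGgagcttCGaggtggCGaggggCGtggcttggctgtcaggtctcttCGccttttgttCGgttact
SFN: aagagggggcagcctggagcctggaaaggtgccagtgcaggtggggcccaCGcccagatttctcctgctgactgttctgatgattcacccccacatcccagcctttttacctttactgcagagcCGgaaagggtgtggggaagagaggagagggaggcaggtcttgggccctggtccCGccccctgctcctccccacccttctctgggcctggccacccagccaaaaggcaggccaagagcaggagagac
The next 2 belong to genes with the smaller response in HGC27, described further on. MSN lies at chrX:65667404-65667653 with 26 CG and MAGEB2 at chrX:30215313-30215562 with 15, both on the plus strand.
MSN: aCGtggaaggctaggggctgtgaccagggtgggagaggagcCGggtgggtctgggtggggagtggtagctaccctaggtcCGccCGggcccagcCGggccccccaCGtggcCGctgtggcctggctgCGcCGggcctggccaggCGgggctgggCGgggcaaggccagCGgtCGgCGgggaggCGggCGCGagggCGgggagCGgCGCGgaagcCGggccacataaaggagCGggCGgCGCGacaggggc
MAGEB2: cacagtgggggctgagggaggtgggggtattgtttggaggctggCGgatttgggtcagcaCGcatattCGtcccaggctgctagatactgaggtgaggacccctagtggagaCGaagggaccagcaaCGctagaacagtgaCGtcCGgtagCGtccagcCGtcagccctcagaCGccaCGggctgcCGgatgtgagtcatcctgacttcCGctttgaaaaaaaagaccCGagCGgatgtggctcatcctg
Over protein-coding genes, the median number of CG in the window was 17 for the 559 called larger in HGC27 (quartiles 7 and 25.5) and 11 for the 316 called smaller (4 and 24), against 20 for all 17376 matched (11 and 28).

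Genes of DNA replication and cell division formed the list with the highest share of larger responses in HGC27. Of 66 G1/S and DNA replication genes, 52 (78.8%) had the larger response in HGC27 and 2 the smaller, with a median difference of 1.55. These shares were 13.6% and 9.34% of genes with a mean of at least 100. In HGC27, 61 rose and 1 fell, against 14.7% and 9.03% of all genes tested. In SNU16, 3 rose and 0 fell by limma, or 8 and 1 at an unadjusted p below 0.05. Over all genes tested, 4.5% rose and 2.34% fell in SNU16 at the adjusted threshold. At the adjusted threshold 5 rose and 16 fell in YCCEL1, 1 rose and 49 fell in SNU719, and 9 rose and 8 fell in AGS. The list's median level was 9.282 and 9.328 in HGC27 DCB, against 7.66 and 7.667 in HGC27 DMSO, and lay between 8.975 and 9.037 in SNU16 DCB, against 8.855 and 8.947 in SNU16 DMSO. The HGC27 DCB libraries thus lay a little above SNU16 and the HGC27 DMSO libraries well below it, at the low end of the 20 libraries. The part of that low DMSO level in the result was not tested.

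RRM2, the small subunit of ribonucleotide reductase, had 1796 and 1910.1 in HGC27 DCB, against 235 and 251 in HGC27 DMSO, and 1804 and 1702 in SNU16 DCB, against 1788 and 1746 in SNU16 DMSO (difference 2.94 ± 0.16, adjusted p = 3.21e-08). UHRF1, which brings DNMT1 to newly replicated DNA, had 1162 and 1041 in HGC27 DCB, against 170.4 and 161 in HGC27 DMSO, and 1093 and 1068 in SNU16 DCB, against 1199 and 1082 in SNU16 DMSO (difference 2.80 ± 0.148, adjusted p = 2.28e-08). In both genes the HGC27 groups lay far apart and the SNU16 groups did not. The sliding clamp PCNA had 1879 and 1893 in HGC27 DCB, against 447 and 432 in HGC27 DMSO, and differed by 2.04 ± 0.0792 (adjusted p = 1.00e-09). TYMS, thymidylate synthase, differed by 2.34, CDC6, a loader of the replicative helicase, by 2.75, ASF1B, a histone chaperone, by 2.79 and TK1, thymidine kinase, by 2.62. MCM3, a subunit of that helicase, had 2191 and 2222 in HGC27 DCB, against 657 and 648 in HGC27 DMSO, and 2472 and 2548 in SNU16 DCB, against 2599 and 2265 in SNU16 DMSO, a difference of 1.71 ± 0.0962 (adjusted p = 4.66e-08). The 2 members with the smaller response were D-type cyclins. CCND1 was at 2109.6 and 2090.5 in HGC27 DCB, against 2430.2 and 2457 in HGC27 DMSO, and at 2073 and 2170.1 in SNU16 DCB, against 2115 and 2010.0 in SNU16 DMSO (difference -0.26 ± 0.0526). CCND2, named after its values were seen, was at 1765 and 1761 in HGC27 DCB, against 1502 and 1637 in HGC27 DMSO, and at 3.96 and 1.98 in SNU16 DCB, against 0 in both SNU16 DMSO libraries (adjusted p = 0.00348).

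Mitotic genes followed. Of 71 G2/M and mitosis genes, 51 (71.8%) had the larger response in HGC27 and 0 the smaller by limma. At an unadjusted p below 0.05 these counts were 57 and 0, and the median difference was 1.13. Of genes with a mean of at least 100, 13.6% were larger and 9.34% smaller at the adjusted threshold. In HGC27 alone, 56 members rose, against 14.7% of all genes tested. MYBL2, a transcription factor of dividing cells, had 1512 and 1478 in HGC27 DCB, against 322 and 346 in HGC27 DMSO, and 2540.4 and 2562 in SNU16 DCB, against 2096 and 2070.5 in SNU16 DMSO (difference 1.87 ± 0.0791, adjusted p = 2.26e-09). The mitotic motor KIF11 differed by 1.51 and cyclin A2, CCNA2, by 1.66. TUBA1B, an alpha tubulin, had 17660.0 and 18044 in HGC27 DCB, against 3854 and 3855 in HGC27 DMSO, and 12569 and 12662 in SNU16 DCB, against 14145 and 13873 in SNU16 DMSO (difference 2.36 ± 0.0402, adjusted p = 3.73e-13). TUBA1B has near-identical paralogs, so its reads may be shared with them.

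Uptake and handling of the drug fall among these genes. Of 31 tested genes of decitabine uptake and nucleotide metabolism, 12 (38.7%) had the larger response in HGC27 and 2 (6.45%) the smaller, against 13.6% and 9.34% of genes with a mean of at least 100. SLC29A1, an equilibrative nucleoside transporter, had 798 and 867 in HGC27 DCB, against 144 and 211 in HGC27 DMSO, and 691 and 666 in SNU16 DCB, against 587 and 675 in SNU16 DMSO (difference 2.14 ± 0.235, adjusted p = 3.29e-05). SAMHD1, a phosphohydrolase that degrades deoxynucleotide triphosphates, differed by 2.03 ± 0.198 (adjusted p = 1.14e-05). Of 20 genes of the DNA methylation machinery, 6 (30%) had the larger response in HGC27 and 0 the smaller by limma, or 6 and 4 at an unadjusted p below 0.05. The adjusted counts stand against the same 13.6% and 9.34%. Members of both lists may also belong to the replication list already counted, so the counts are not separate results. DNMT1, the maintenance methyltransferase, was at 3972 and 3141 in HGC27 DCB, against 1152 and 1185 in HGC27 DMSO, and at 2264 and 2188 in SNU16 DCB, against 1492 and 1957 in SNU16 DMSO. Its difference of 1.21 ± 0.308 had an adjusted p of 0.0182, and the call was lost under some of the alternatives described in the closing section.

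Promoters of the replication genes are shown for the letters of the E2F site, the element through which E2F factors act on S-phase genes. TTTCCCGC and TTTGGCGC were searched on both strands of the same 250-base window, and matches are in capitals. UHRF1 lies at chr19:4909251-4909500 on the plus strand, TYMS at chr18:657403-657652 on the plus strand and MCM3 at chr6:52284743-52284992 on the minus strand.
UHRF1: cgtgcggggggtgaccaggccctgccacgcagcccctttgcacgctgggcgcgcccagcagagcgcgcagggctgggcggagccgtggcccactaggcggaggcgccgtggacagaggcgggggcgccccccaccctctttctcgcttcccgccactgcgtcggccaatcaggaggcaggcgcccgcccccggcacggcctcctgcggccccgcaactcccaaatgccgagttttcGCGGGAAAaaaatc
TYMS: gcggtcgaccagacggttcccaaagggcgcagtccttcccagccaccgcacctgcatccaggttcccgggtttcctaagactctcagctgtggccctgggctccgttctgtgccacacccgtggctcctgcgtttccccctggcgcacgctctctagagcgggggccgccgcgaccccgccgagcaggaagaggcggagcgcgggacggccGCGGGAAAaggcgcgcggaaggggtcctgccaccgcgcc
MCM3: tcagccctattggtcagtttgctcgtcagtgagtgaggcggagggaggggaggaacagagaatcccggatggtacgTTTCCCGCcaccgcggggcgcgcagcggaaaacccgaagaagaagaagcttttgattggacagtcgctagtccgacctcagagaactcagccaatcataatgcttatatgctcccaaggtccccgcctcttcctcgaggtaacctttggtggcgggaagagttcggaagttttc
A match to either motif was found in 19 of the 66 windows (28.8%), against 2.9% of the 17376 protein-coding windows and 3.58% of those of the 559 protein-coding genes called larger in HGC27. These matches are letters in a window and were not tested as binding sites.

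**Figure D3:**
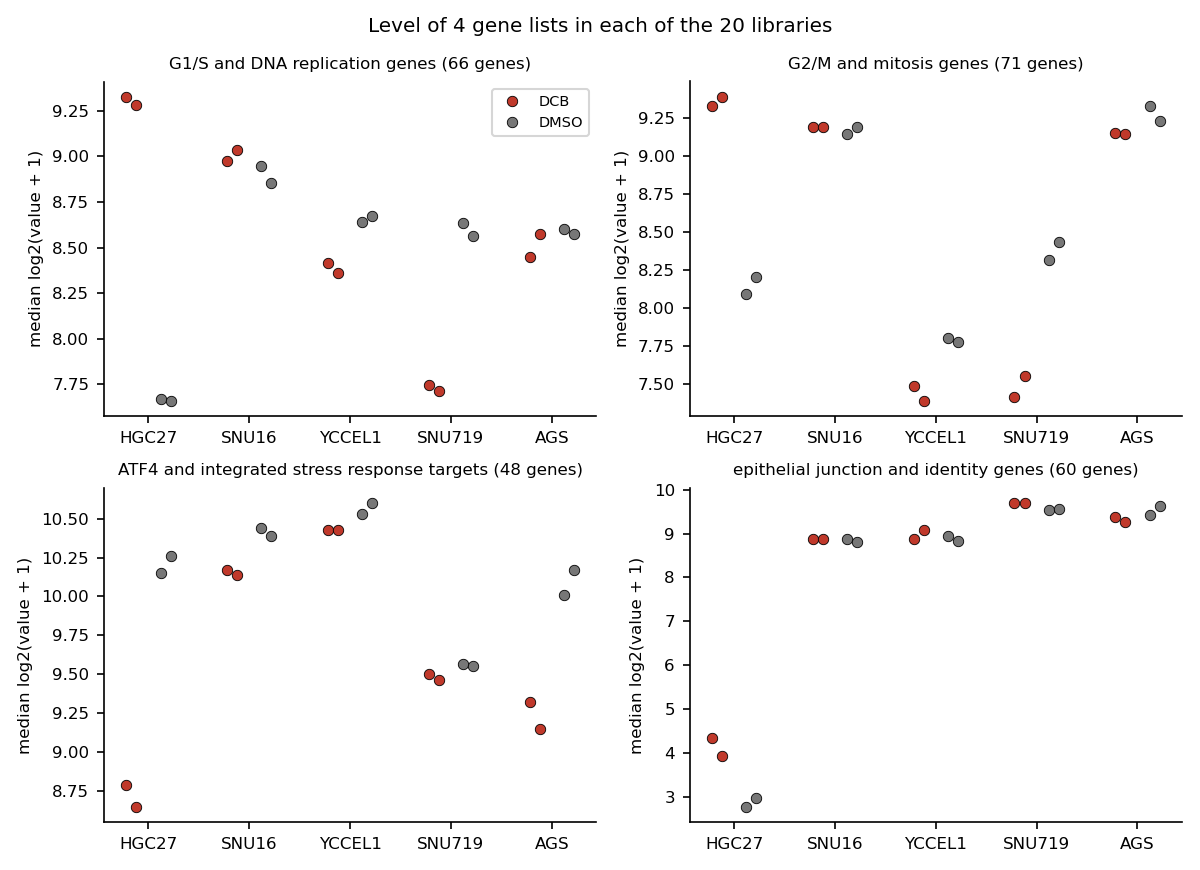
Median log2(value + 1) over the tested members of 4 gene lists in each of the 20 libraries, with DCB left of DMSO in each line. HGC27 DMSO lies lowest of all groups for G1/S genes, HGC27 DCB lies lowest for ATF4 targets, and both HGC27 groups lie far below every other line for epithelial genes.

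Targets of ATF4, the transcription factor of the integrated stress response that induces amino acid synthesis and transport genes, fell in HGC27 and moved less in SNU16. Of 48 tested members, 35 (72.9%) had the smaller response in HGC27 and 2 the larger, with a median difference of -1.17. Of genes with a mean of at least 100, 9.34% were smaller and 13.6% larger. In HGC27, 38 fell and 3 rose, and in SNU16, 16 fell and 4 rose. Over all genes tested, 9.03% fell and 14.7% rose in HGC27, and 2.34% fell and 4.5% rose in SNU16. The list's median level was 8.643 and 8.783 in HGC27 DCB, against 10.15 and 10.26 in HGC27 DMSO, and 10.14 and 10.17 in SNU16 DCB, against 10.39 and 10.44 in SNU16 DMSO. HGC27 DCB was the lowest of the 10 groups, and HGC27 DMSO lay within the range of the other lines.

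CHAC1 (chromosome 15, 40952962 to 40956512), which degrades glutathione, had 45.1 and 38.9 in HGC27 DCB, against 466 and 427 in HGC27 DMSO, and 287 and 360.1 in SNU16 DCB, against 264 and 271 in SNU16 DMSO (difference -3.64 ± 0.167, adjusted p = 5.01e-09). ASNS (chromosome 7, 97851677 to 97872542), asparagine synthetase, had 333 and 301 in HGC27 DCB, against 2901 and 3180.4 in HGC27 DMSO, and 3198 and 3191 in SNU16 DCB, against 3859 and 4192 in SNU16 DMSO (difference -2.93 ± 0.269, adjusted p = 6.76e-06). DDIT3, the stress factor CHOP, had 68.5 and 68.1 in HGC27 DCB, against 436 and 435 in HGC27 DMSO, with 209 and 222 in SNU16 DCB, against 237 and 215 in SNU16 DMSO (difference -2.59 ± 0.146). ATF4 itself was at 1526 and 1518 in HGC27 DCB, against 6185 and 6102 in HGC27 DMSO, and at 6139 and 6142 in SNU16 DCB, against 8293 and 8195 in SNU16 DMSO. It fell in both lines, by more in HGC27 (difference -1.59 ± 0.0449, adjusted p = 3.21e-11). ATF5 reached the same sign by another route. It stood at 332 and 332 in HGC27 DCB, against 385 and 416 in HGC27 DMSO, and at 2373 and 2491 in SNU16 DCB, against 528 and 566 in SNU16 DMSO (difference -2.42 ± 0.112, adjusted p = 5.39e-09).

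The amino acid transporters SLC7A5, SLC7A1 and SLC7A11 differed by -1.77, -1.57 and -1.81, and the serine synthesis enzyme PSAT1 by -1.34. The transcription factor CEBPB, a partner of ATF4, differed by -2.04. GPT2, the mitochondrial alanine aminotransferase, which was outside the list, had 320.1 and 280.1 in HGC27 DCB, against 1617 and 1678 in HGC27 DMSO, and 1352 and 1371 in SNU16 DCB, against 1641 and 1564 in SNU16 DMSO (difference -2.22 ± 0.11). The 2 members with the larger response in HGC27, named after their values were seen, were the endoplasmic reticulum chaperone HSPA5 and its partner SDF2L1, with differences of 0.69 and 0.89. HSPA5 had 5077 and 4975 in HGC27 DCB, against 2916 and 2795 in HGC27 DMSO.

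The composite site to which ATF4 binds together with a C/EBP partner holds the letters TGATGNAA, and 3 promoters of members are shown with matches on either strand in capitals. CHAC1 lies at chr15:40953221-40953470 on the plus strand, ASNS at chr7:97872409-97872658 on the minus strand and SLC7A11 at chr4:138242350-138242599 on the minus strand.
CHAC1: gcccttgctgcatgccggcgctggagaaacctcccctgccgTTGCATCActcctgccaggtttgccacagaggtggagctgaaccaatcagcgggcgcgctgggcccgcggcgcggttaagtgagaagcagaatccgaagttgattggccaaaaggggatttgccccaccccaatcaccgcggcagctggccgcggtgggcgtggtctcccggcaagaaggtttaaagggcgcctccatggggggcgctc
ASNS: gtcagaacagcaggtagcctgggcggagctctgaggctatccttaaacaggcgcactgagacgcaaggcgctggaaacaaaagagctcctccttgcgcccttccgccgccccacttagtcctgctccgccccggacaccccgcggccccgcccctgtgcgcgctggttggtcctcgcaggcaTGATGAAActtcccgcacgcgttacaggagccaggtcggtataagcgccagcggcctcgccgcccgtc
SLC7A11: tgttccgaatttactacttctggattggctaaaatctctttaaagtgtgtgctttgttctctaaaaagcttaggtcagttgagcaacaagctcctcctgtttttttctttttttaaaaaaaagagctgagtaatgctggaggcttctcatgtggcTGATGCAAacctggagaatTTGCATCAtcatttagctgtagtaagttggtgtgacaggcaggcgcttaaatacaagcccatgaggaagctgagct
The letters were found in the windows of 11 of the 48 members (22.9%), against 1.67% of the 17376 protein-coding windows and 3.16% of those of the 316 protein-coding genes called smaller in HGC27.

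Among the smaller responses were genes with higher values in HGC27, under both treatments, than in SNU16 DMSO, and that rose in SNU16. MSN, moesin, which links actin to the plasma membrane, had 1241 and 1159 in HGC27 DCB, against 813 and 784 in HGC27 DMSO. In SNU16 it was at 14.6 and 12.5 in DCB, against 0 in both DMSO libraries (adjusted p = 6.07e-10). LGALS1 (chromosome 22, 37675636 to 37679802), galectin 1, had 4219 and 4213 in HGC27 DCB, against 5701 and 6179 in HGC27 DMSO, and 236 and 189 in SNU16 DCB, against 43.996 and 38.6 in SNU16 DMSO (difference -2.82 ± 0.165, adjusted p = 6.64e-08). The SNU16 DCB values of both genes remained far below those of HGC27. TIMP2, an inhibitor of metalloproteinases, had 1895 and 1840.1 in HGC27 DCB, against 3134 and 3091 in HGC27 DMSO, and 78.6 and 96.4 in SNU16 DCB, against 29.5 and 26.04 in SNU16 DMSO (difference -2.35 ± 0.188). AXIN2, a target and inhibitor of WNT signaling, had 1526 and 1495 in HGC27 DCB, against 2566 and 2681 in HGC27 DMSO, and 100.2 and 68.8 in SNU16 DCB, against 27.4 and 27.4 in SNU16 DMSO (difference -2.36 ± 0.167). HSD11B1L, a short-chain dehydrogenase, was at 96.3 and 105 in HGC27 DCB, against 78.4 and 96.3 in HGC27 DMSO, and at 206 and 199 in SNU16 DCB, against 14.5 and 18.6 in SNU16 DMSO (difference -3.33 ± 0.305), so its DCB values in SNU16 exceeded those of HGC27. Of another form, the fucosyltransferase FUT1 fell in HGC27, with 8.09 and 7.67 in DCB, against 50.3 and 36.98 in DMSO, and had 306 and 288 in SNU16 DCB, against 242 and 258 in SNU16 DMSO (difference -2.56 ± 0.208). PLEKHG4, a guanine nucleotide exchange factor, differed by -2.32.

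The long noncoding RNA NEAT1, scaffold of nuclear paraspeckles, had the smallest adjusted p among smaller responses. It was at 3976 and 3910.1 in HGC27 DCB, against 15232 and 15728 in HGC27 DMSO, and at 2188 and 2117 in SNU16 DCB, against 1550.3 and 1706 in SNU16 DMSO. The difference was -2.38 ± 0.0592 (adjusted p = 1.10e-11), and its response in HGC27 was -1.97 on log2(value + 1).

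Extracellular matrix and mesenchymal genes as a list did not share 1 direction. Of 79 tested, 10 (12.7%) had the larger response in HGC27 and 4 (5.06%) the smaller, with a median difference of 0.129. These shares were 7.62% and 5.42% over all genes tested and 13.6% and 9.34% over genes with a mean of at least 100, so the list was near them. With all libraries kept and treat aside, the larger count ran from 7 to 18 over the alternatives. GREM1, a BMP antagonist, had 139 and 117 in HGC27 DCB, against 5.53 and 10.8 in HGC27 DMSO, and 391 and 395 in SNU16 DCB, against 242 and 288 in SNU16 DMSO (difference 3.30 ± 0.489, adjusted p = 4.35e-04). SPARC, a matrix glycoprotein, was at 2637 and 2864 in HGC27 DCB and 3241 and 3153 in HGC27 DMSO and at or near 0 in SNU16 (adjusted p = 0.787). The mesenchymal markers CDH2, FN1 and ZEB1 averaged 172.2, 638.5 and 570 in HGC27 DCB, against 16.6, 271.4 and 839.8 in HGC27 DMSO. In SNU16 they averaged 0.498, 4.09 and 5.15 in DCB, against 0, 0 and 1.52 in DMSO. The larger response of CDH2 was called, but lost under 11 of 21 alternatives, and FN1 and ZEB1 were not called. The list's median level was 7.77 and 7.78 in HGC27 DCB, against 6.557 and 6.647 in HGC27 DMSO, and 2.678 and 2.947 in SNU16 DCB, against 1.613 and 1.63 in SNU16 DMSO. While these medians were higher with DCB in each line, the summed value of the list was lower with DCB in HGC27, at 121200 to 123200 in HGC27 DCB, against 166900 to 169900 in HGC27 DMSO. Such a sum rests on the most abundant transcripts, and VIM averaged 25770 in HGC27 DCB and 72250 in HGC27 DMSO. By count, 30 members rose and 3 fell in HGC27, against 14.7% and 9.03% of all genes tested.

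Cancer-testis antigens, proteins of the germ line whose genes can be silenced by promoter methylation, are shown next. Of 81 tested, 18 (22.2%) had the smaller response in HGC27 and 7 (8.64%) the larger, against 5.42% and 7.62% of all genes tested, with a median difference of -0.497. In HGC27, 28 rose and 1 fell, and in SNU16, 42 rose and 0 fell by limma, or 50 and 1 at an unadjusted p below 0.05. Over all genes tested, 14.7% rose in HGC27 and 4.5% in SNU16. XAGE1B had 732 and 790.05 in HGC27 DCB, against 642 and 643 in HGC27 DMSO, and 168 and 118 in SNU16 DCB, against 0 in both SNU16 DMSO libraries (adjusted p = 6.66e-07). MAGEB2 had 333 and 316 in HGC27 DCB, against 391.5 and 383 in HGC27 DMSO, and 47.4 and 49.2 in SNU16 DCB, against 0 in both SNU16 DMSO libraries (adjusted p = 1.07e-06). CTAG1A, which encodes the antigen NY-ESO-1, had 1195 and 1332 in HGC27 DCB, against 2029 and 2109 in HGC27 DMSO, and 74.1 and 59.7 in SNU16 DCB, against 0 in SNU16 DMSO (adjusted p = 9.05e-05). These 3 were on in HGC27 before treatment.

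In these 2 lines, GAGE13 and GAGE12F had their highest values in SNU16 DCB. GAGE13 was at 0 in all 4 HGC27 libraries and at 62.2 and 61.1 in SNU16 DCB, against 0 in both SNU16 DMSO libraries (adjusted p = 1.06e-06). GAGE12F had 19.7 and 20.99 in HGC27 DCB, against 0 and 1.21 in HGC27 DMSO, and 558 and 508 in SNU16 DCB, against 0 in SNU16 DMSO (adjusted p = 7.15e-05). GAGE, XAGE and CTAG genes are near-identical copies on the X chromosome, so values of single members are uncertain. RHOXF1, an X-linked homeobox gene of the germ line, went the other way, with 18.7 and 21.8 in HGC27 DCB, against 1.15 and 1.21 in HGC27 DMSO, and 0 and 0 in SNU16 DCB, against 0.949 and 0.989 in SNU16 DMSO (adjusted p = 3.81e-05).

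Genes of meiosis and of the piRNA pathway, which silences transposons in germ cells, had calls on both sides. Of 64 tested, 5 (7.81%) had the larger response in HGC27, near the 7.62% of all genes tested, and 8 (12.5%) the smaller, against 5.42%. Within the list, 31 rose in HGC27 and 28 in SNU16, against 14.7% and 4.5% of all genes tested. MAEL, a piRNA pathway protein, had 55.3 and 53.3 in HGC27 DCB, against 1.72 and 2.18 in HGC27 DMSO, and 236 and 233 in SNU16 DCB, against 0 in both SNU16 DMSO libraries (adjusted p = 2.55e-05). MEIOB, a meiotic recombination factor, had 15.2 and 15.01 in HGC27 DCB, against 2.6 and 4.27 in HGC27 DMSO, and 80.8 and 57.2 in SNU16 DCB, against 0 in SNU16 DMSO (adjusted p = 1.59e-04). Both rose in each line and came further up in SNU16. DMRT1, a transcription factor of the testis, was at 29.2 and 23.8 in HGC27 DCB, against 0 in HGC27 DMSO, and at 0 in all 4 SNU16 libraries (adjusted p = 1.24e-05). STAG3, the meiotic cohesin subunit, had 773 and 879 in HGC27 DCB, against 100.8 and 83.8 in HGC27 DMSO, and 91.8 and 79.5 in SNU16 DCB, against 47.6 and 63.3 in SNU16 DMSO (difference 2.52 ± 0.294, adjusted p = 5.78e-05). DDX4, the germ cell helicase VASA, was at 4.86 and 21.03 in HGC27 DCB and 2.5 and 23.2 in SNU16 DCB, against 0 in both lines in DMSO (adjusted p of the difference = 0.918). Of 52 genes of the DUX4-type cleavage-stage program, 0 were called for the difference by limma, against 7.62% larger and 5.42% smaller of all genes tested. At an unadjusted p below 0.05, 4 were larger and 0 smaller. Only 4 members had a sum above 10 over the 8 libraries of these 2 lines. Most of the list was thus too low here for a call, and the count does not show that responses were alike.

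Of 78 tested developmental homeobox and bHLH factors, 13 (16.7%) had the larger response in HGC27 and 3 (3.85%) the smaller, against 7.62% and 5.42% of all genes tested. The larger count rested on single libraries and low genes. It was 7 without HGC27 DMSO replicate 1, 6 to 8 without any 1 of the 4 SNU16 libraries, of which the 6 without SNU16 DMSO replicate 2 is near the share over all genes, and 4 of 38, with 3 smaller, when genes with a mean under 10 were left out. HAND2, a bHLH factor of heart and limb development, was at 26.4 and 23.98 in HGC27 DCB, against 0 in HGC27 DMSO, and at 0 in all 4 SNU16 libraries (adjusted p = 1.34e-06). POU4F1, a sensory neuron factor with the smaller response, was at 5.9 and 4.66 in HGC27 DCB, against 0 and 1.21 in HGC27 DMSO, and at 36.5 and 29.5 in SNU16 DCB, against 0 in SNU16 DMSO (adjusted p = 0.0114). Of 38 tested HOX genes, 1 (2.63%) was larger and 2 (5.26%) were smaller, the smaller share being near the 5.42% of all genes tested. HOXC13 had 145 and 141 in HGC27 DCB, against 179.6 and 191 in HGC27 DMSO, and 23.7 and 19.7 in SNU16 DCB, against 3.8 and 5.93 in SNU16 DMSO (difference -2.34 ± 0.339, adjusted p = 3.67e-04).

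Of 30 tested secreted and intracellular antagonists of WNT signaling, 6 (20%) had the larger response in HGC27 and 5 (16.7%) the smaller, against 7.62% and 5.42% of all genes tested. SFRP2, which binds WNT ligands, was at 68.8 and 82.4 in HGC27 DCB, against 0 and 1.21 in HGC27 DMSO, and SOST, sclerostin, at 20.6 and 18.7 in HGC27 DCB, against 0 in HGC27 DMSO. Both were at 0 in all 4 SNU16 libraries (adjusted p = 1.29e-05 for SFRP2 and 1.78e-06 for SOST). NOTUM, a WNT deacylase, had 382 and 429 in HGC27 DCB, against 746 and 845 in HGC27 DMSO, and 13.1 and 8.29 in SNU16 DCB, against 0 and 1.71 in SNU16 DMSO (difference -3.77 ± 0.517, adjusted p = 2.40e-04). APC2, a relative of the tumor suppressor APC, had 130.3 and 106 in HGC27 DCB, against 607 and 509.8 in HGC27 DMSO, and 7.3 and 12.5 in SNU16 DCB, against 1.75 and 3.65 in SNU16 DMSO (difference -3.80 ± 0.708, adjusted p = 0.0026).

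Imprinted genes, whose single expressed copy is set by DNA methylation, had 9 larger (19.1%) and 6 smaller (12.8%) responses in HGC27 of 47 tested, against 7.62% and 5.42% of all genes tested. H19, a maternally expressed noncoding RNA, had 787 and 699 in HGC27 DCB, against 9.23 and 25.001 in HGC27 DMSO, and 424 and 419 in SNU16 DCB, against 119 and 124 in SNU16 DMSO. It rose in both lines and by more in HGC27 (difference 3.72 ± 0.555, adjusted p = 4.60e-04). MEST, paternally expressed, had 98.7 and 94.6 in HGC27 DCB, against 0 and 4.57 in HGC27 DMSO, and 1002 and 1115 in SNU16 DCB, against 1386 and 1401 in SNU16 DMSO (difference 5.77 ± 0.689, adjusted p = 6.94e-05). PHLDA2, maternally expressed, differed by 2.42 ± 0.217. NLRP2, a maternal-effect gene also reported as imprinted, had 52.96 and 50.6 in HGC27 DCB, against 47.6 and 80.3 in HGC27 DMSO, and 34.7 and 23.9 in SNU16 DCB, against 0 and 1.72 in SNU16 DMSO (difference -4.43 ± 0.644, adjusted p = 3.77e-04).

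Of 41 tested genes of MHC class I antigen presentation, 11 (26.8%) had the larger response in HGC27 and 1 the smaller, against 13.6% and 9.34% of genes with a mean of at least 100, and the count of 11 was 7 without SNU16 DCB replicate 2. B2M, the invariant light chain of class I molecules, had 3553 and 3624 in HGC27 DCB, against 1554 and 1639.9 in HGC27 DMSO, and 5728 and 5555 in SNU16 DCB, against 5085 and 4963 in SNU16 DMSO (difference 1.00 ± 0.0868, adjusted p = 3.84e-06). The peptide-loading chaperone CALR differed by 0.83 and the immunoproteasome subunit PSMB9 by 1.73. Of 74 interferon-stimulated genes, 10 (13.5%) had the larger response and 9 (12.2%) the smaller, near the 13.6% and 9.34% of genes with a mean of at least 100. The counts were 8 and 4 with a replicate block and 6 and 5 with the 8 libraries alone. BST2, tetherin, had 603 and 561 in HGC27 DCB, against 251 and 234 in HGC27 DMSO, and 399 and 409.7 in SNU16 DCB, against 347 and 299 in SNU16 DMSO (difference 0.93 ± 0.123, adjusted p = 1.77e-04). IFIT2, an antiviral RNA-binding protein, had 11.4 and 10.9 in HGC27 DCB, against 19.6 and 38.9 in HGC27 DMSO, and 23.7 and 20.7 in SNU16 DCB, against 3.92 and 5.87 in SNU16 DMSO (difference -3.23 ± 0.717, adjusted p = 0.00819). CXCL17, a mucosal chemokine, was at 0 in HGC27 DCB and at 1.63 and 1.71 in HGC27 DMSO, and at 135 and 114 in SNU16 DCB, against 8.19 and 8.53 in SNU16 DMSO (adjusted p = 7.60e-05). CXCL14, another epithelial chemokine, was at 15.6 and 14.01 in HGC27 DCB, against 0 in HGC27 DMSO and in all 4 SNU16 libraries (adjusted p = 4.47e-05). IL32, a proinflammatory cytokine, had 69.5 and 74.97 in HGC27 DCB, against 3.97 and 4.19 in HGC27 DMSO, and 1448 and 1308 in SNU16 DCB, against 1225 and 1157 in SNU16 DMSO (difference 3.64 ± 0.178, adjusted p = 1.03e-08).

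Cytosolic ribosomal protein genes had small differences in 1 direction. Of 77 tested, 70 (90.9%) had the smaller response in HGC27 and 0 the larger by limma (74 and 0 at an unadjusted p below 0.05), with a median difference of -0.367. Of genes with a mean of at least 100, 9.34% were smaller and 13.6% larger. All 77 fell in HGC27 and 64 fell in SNU16, against 9.03% and 2.34% of all genes tested. RPL10 had 12887 and 12812 in HGC27 DCB, against 28042 and 28643 in HGC27 DMSO, and 20953 and 20799 in SNU16 DCB, against 28610.0 and 28558 in SNU16 DMSO (difference -0.69 ± 0.0321, adjusted p = 6.07e-09). Under quantile normalization 46 members were smaller, 1 was larger and the median was -0.195. Nuclear-encoded respiratory chain genes went the other way, with 27 larger (33.8%) and 3 smaller (3.75%) of 80, against the same 13.6% and 9.34%. Their median difference was 0.207, and their count of larger responses was 16 under quantile normalization. CYCS, cytochrome c, was at 3545 and 3568 in HGC27 DCB, against 1625 and 1760.2 in HGC27 DMSO (difference 0.98 ± 0.088). The response of CYCS in SNU16 was 0.09 (adjusted p = 0.529). Of 40 glycolysis and hypoxia genes, 12 (30%) had the larger response and 3 (7.5%) the smaller, against 13.6% and 9.34% of genes with a mean of at least 100, and LDHA, lactate dehydrogenase A, differed by 1.11 ± 0.0517 (adjusted p = 6.07e-09). DDIT4, an inhibitor of mTOR signaling, and VEGFA, the vascular growth factor, were smaller, with differences of -1.17 and -1.01. Among cholesterol and fatty acid synthesis genes, the desaturase SCD had 11109 and 11003 in HGC27 DCB, against 29969 and 29460.0 in HGC27 DMSO, and 3208 and 3223 in SNU16 DCB, against 3599.9 and 3590.4 in SNU16 DMSO (difference -1.27 ± 0.0399, adjusted p = 9.94e-11).

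**Figure D4:**
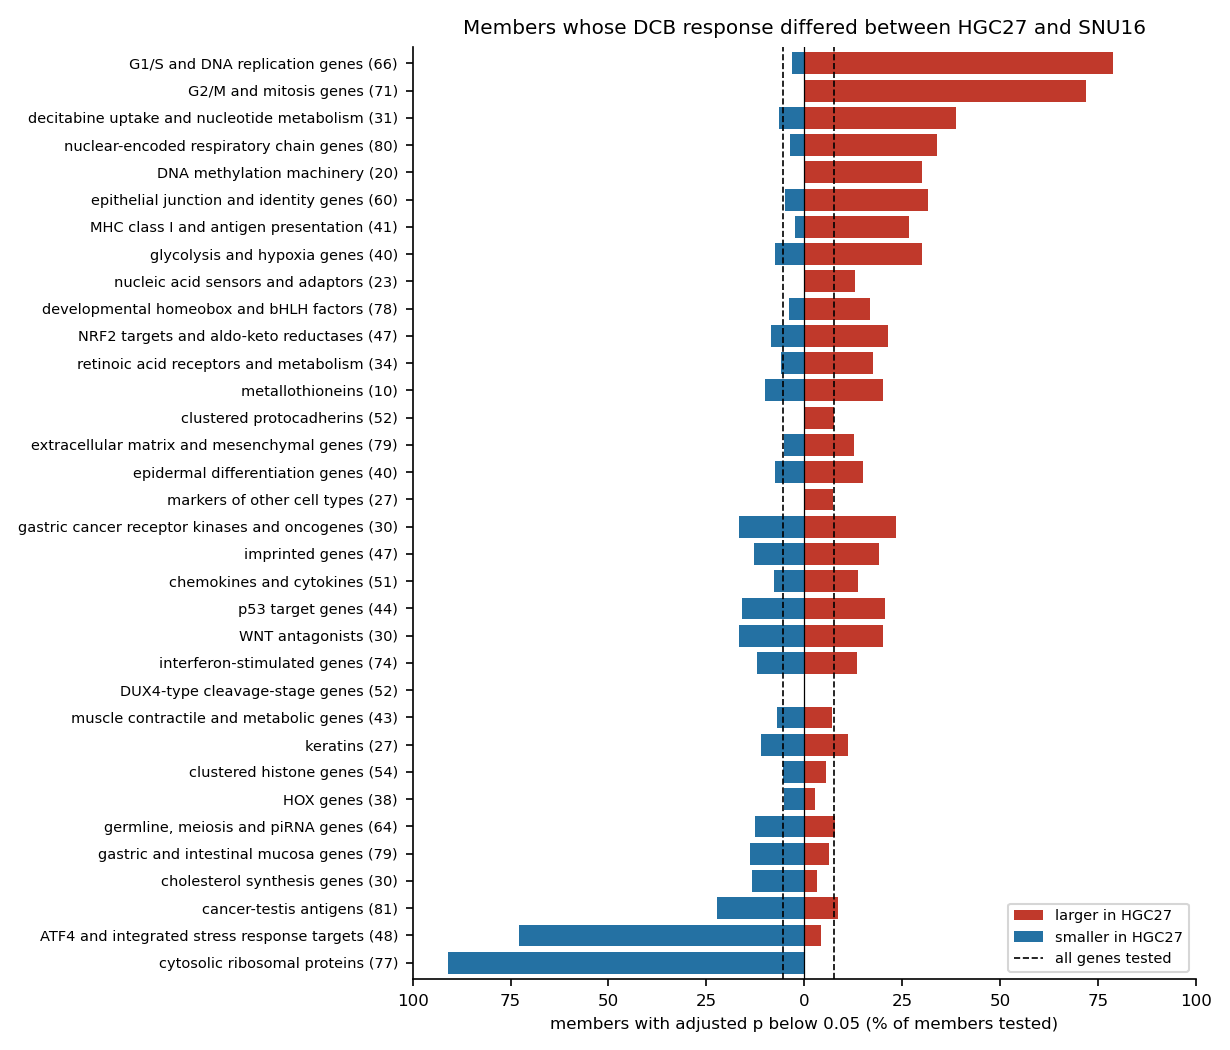
For 34 gene lists, the bars give the percentage of tested members (number in parentheses) whose DCB response was larger (right) or smaller (left) in HGC27 than in SNU16 at an adjusted p below 0.05, and the dashed lines mark the 7.62% and 5.42% of all genes tested. G1/S and G2/M genes reach furthest to the right, and ribosomal proteins and ATF4 targets furthest to the left.

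For the remaining lists the counts stand against the 7.62% larger and 5.42% smaller of all genes tested, and those of clustered histones (5.56% each way), muscle genes (6.98% each way) and larger cholesterol synthesis genes (3.33%) were near or below these shares. Larger and smaller responses numbered 9 and 7 of 44 for p53 targets, 10 and 4 of 47 for NRF2 targets and aldo-keto reductases, 6 and 2 of 34 for retinoic acid receptors and metabolism, and 1 and 4 of 30 for cholesterol synthesis. They numbered 6 and 3 of 40 for epidermal differentiation genes, 3 and 3 of 54 for clustered histones, 3 and 3 of 43 for muscle genes, and 4 and 0 of 52 for clustered protocadherins by limma (6 and 9 at an unadjusted p below 0.05). Metallothioneins counted 2 and 1 of 10, chemokines and cytokines 7 and 4 of 51, nucleic acid sensors 3 and 0 of 23 (4 and 1 at an unadjusted p below 0.05), and receptor kinases and oncogenes 7 and 5 of 30. In the fit of the 8 libraries alone the receptor kinases counted 0 larger. CDKN1A, the p53 target p21, had 429.8 and 555 in HGC27 DCB, against 114 and 123 in HGC27 DMSO, and 334 and 347 in SNU16 DCB, against 265 and 236 in SNU16 DMSO (difference 1.60 ± 0.15, adjusted p = 8.20e-06). ALDH1A1, a retinaldehyde dehydrogenase that makes retinoic acid, had 1189 and 1102 in HGC27 DCB, against 239 and 223 in HGC27 DMSO, and 2182 and 2243 in SNU16 DCB, against 2588 and 2598 in SNU16 DMSO (difference 2.53 ± 0.233, adjusted p = 6.80e-06). The retinoic acid receptor RARG differed by -1.29 ± 0.144, with 1771 and 1775 in HGC27 DCB, against 3189.5 and 3173 in HGC27 DMSO. RARB was at 82.96 and 75.2 in HGC27 DCB and 59.2 and 65.8 in HGC27 DMSO, and at 43.5 and 55.6 in SNU16 DCB and 56.3 and 59.8 in SNU16 DMSO (difference 0.57 ± 0.842, adjusted p = 0.752). MET, the hepatocyte growth factor receptor, had 260.4 and 279.7 in HGC27 DCB, against 655 and 541 in HGC27 DMSO, and 828 and 836 in SNU16 DCB, against 1002 and 937 in SNU16 DMSO (difference -0.92 ± 0.132, adjusted p = 3.43e-04). MYC had 1546 and 1389 in HGC27 DCB, against 2922 and 2919 in HGC27 DMSO, and 5396 and 5497 in SNU16 DCB, against 7107 and 6900.5 in SNU16 DMSO (difference -0.63 ± 0.126, adjusted p = 0.00412).

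Some genes were called in both lines with opposite signs and for the difference. Of all genes tested, 74 (0.271%) rose in HGC27 and fell in SNU16, and 82 (0.3%) fell in HGC27 and rose in SNU16. VIM belongs to the second set. Its difference was -4.50 ± 0.577 (adjusted p = 1.31e-04), with responses of -1.49 in HGC27 and 3.01 in SNU16, where the values given above were a small fraction of those in HGC27. Of the other mesenchymal markers given earlier, CDH2 and FN1 had higher means with DCB in HGC27, and ZEB1 and SPARC lower ones. TGFB3, a growth factor of the TGF-beta family, had 245 and 399 in HGC27 DCB, against 767 and 1250.5 in HGC27 DMSO, and 259.7 and 256 in SNU16 DCB, against 41.6 and 54.6 in SNU16 DMSO (difference -4.06 ± 0.792, adjusted p = 0.00359). FGF21, a hormone induced by ATF4, had 4.76 and 3.72 in HGC27 DCB, against 23.2 and 29.8 in HGC27 DMSO, and 30.8 and 23.7 in SNU16 DCB, against 5.68 and 2.37 in SNU16 DMSO (difference -4.96 ± 0.639, adjusted p = 1.36e-04). In VIM, TGFB3 and FGF21 the DCB and DMSO libraries did not overlap in either line. These genes were picked for their opposite calls, so this separation is no further support.

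In the first set, SLC6A6, the taurine transporter, had 339 and 383 in HGC27 DCB, against 61.8 and 59.03 in HGC27 DMSO, and 198 and 176 in SNU16 DCB, against 552 and 299.99 in SNU16 DMSO (difference 3.68 ± 0.363, adjusted p = 1.29e-05). ANO1, a calcium-activated chloride channel, had 19.3 and 24.1 in HGC27 DCB, against 4.3 and 7.89 in HGC27 DMSO, and 846 and 884 in SNU16 DCB, against 1711 and 1427 in SNU16 DMSO (difference 2.57 ± 0.296, adjusted p = 5.08e-05). CHGA, chromogranin A of neuroendocrine granules, was at 14.6 and 13.4 in HGC27 DCB, against 0 in both HGC27 DMSO libraries, and at 145 and 121 in SNU16 DCB, against 436 and 383 in SNU16 DMSO (adjusted p = 1.49e-05). MLC1, a membrane protein of astrocytes, had 9.51 and 20.1 in HGC27 DCB, against 0.506 and 1.06 in HGC27 DMSO, and 0.869 and 0.433 in SNU16 DCB, against 82.3 and 4.27 in SNU16 DMSO. The SNU16 DMSO libraries of MLC1 lay far apart, and its difference was 6.76 ± 1.25 (adjusted p = 0.00242). The immediate-early factor FOS was at 49.8 and 46.9 in HGC27 DCB, against 8.08 and 10.2 in HGC27 DMSO, and at 2118 and 2056 in SNU16 DCB, against 3330.3 and 3194 in SNU16 DMSO (difference 2.93 ± 0.129, adjusted p = 3.46e-09).

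**Figure D5:**
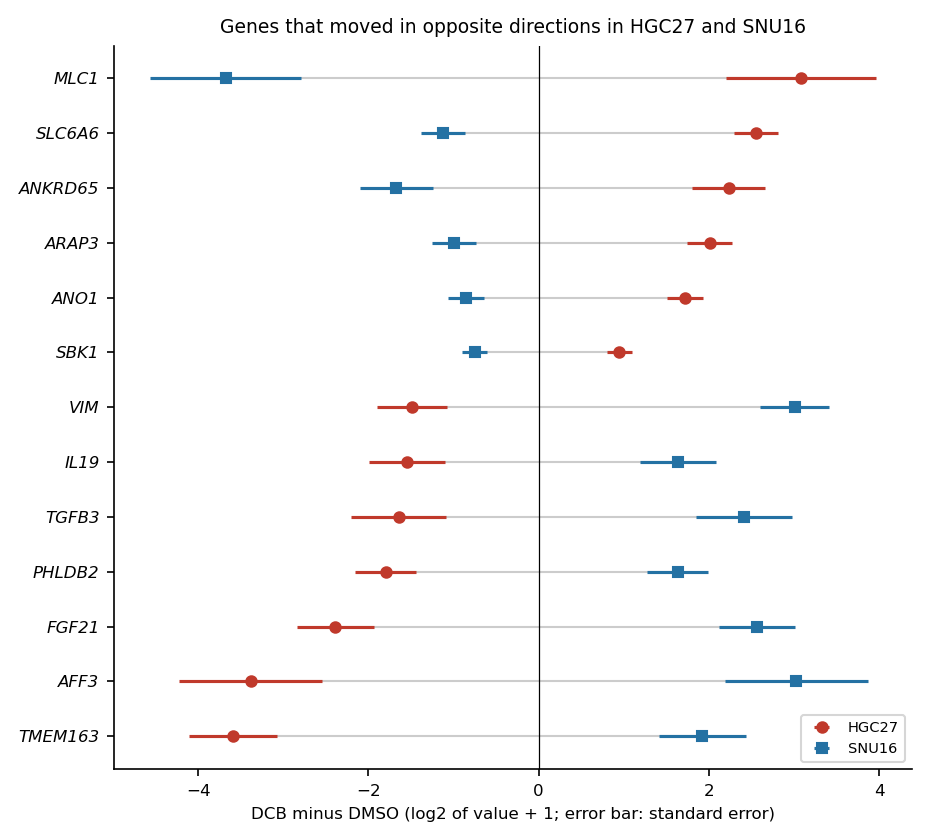
DCB minus DMSO on log2(value + 1) in HGC27 (circles) and SNU16 (squares), with standard errors, for 13 genes with opposite calls and no group at 0. The HGC27 response is positive for 6 genes and negative for 7, with the SNU16 response on the other side of 0 in each.

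Genes that the study singles out for methylation or for its other comparisons were checked as well. RASSF1, a tumor suppressor often methylated in cancer, had 124 and 117 in HGC27 DCB, against 104 and 97.3 in HGC27 DMSO, and 532 and 492 in SNU16 DCB, against 443 and 488 in SNU16 DMSO (difference 0.12 ± 0.167, adjusted p = 0.722). CDKN1C, the imprinted cell cycle inhibitor p57, differed by 1.11 ± 0.724 (adjusted p = 0.385). CHFR, a mitotic checkpoint ligase, had 259 and 223 in HGC27 DCB, against 272 and 321 in HGC27 DMSO, and a difference of 0.29 ± 0.836 (adjusted p = 0.896). MSX1, a homeobox factor, differed by 0.86 ± 0.619 (adjusted p = 0.439) and HOPX, a homeodomain-only protein, by -0.41 ± 0.946 (adjusted p = 0.861). The WNT antagonist SFRP1 was at 19.9 and 19.7 in HGC27 DCB, against 48.5 and 43.7 in HGC27 DMSO, and at 2.08 and 0 in SNU16 DCB, against 0 in both SNU16 DMSO libraries (adjusted p = 0.069). NKD1, a WNT feedback inhibitor, was at 3605 and 3638 in HGC27 DCB, against 5092 and 5016 in HGC27 DMSO, and at 2.5 and 2.91 in SNU16 DCB, against 2.4 and 10.9 in SNU16 DMSO (adjusted p = 0.921). INPP4B, a phosphoinositide phosphatase, differed by 1.27 ± 0.424 (adjusted p = 0.0678), and INHBB, an activin subunit, was at 30.5 and 22.5 in HGC27 DCB, against 5.76 and 12.1 in HGC27 DMSO (adjusted p = 0.385). None of these genes passed the adjusted threshold by limma, which does not show that the responses were alike.

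Of 27 tested markers of other cell types, 2 (7.41%) had the larger response in HGC27 and 0 the smaller by limma, or 5 and 1 at an unadjusted p below 0.05. Over all genes tested the shares were 7.62% and 5.42%, so the larger count was near that of any genes. The 2 were CHGA and CLDN5. CLDN5, an endothelial claudin, had 3.3 and 1.96 in HGC27 DCB and was at 0 in the other 6 libraries (adjusted p = 0.0349). These values are low, and the call was lost under 11 of 19 alternatives. Their summed values ranged from 15640 to 17090 in HGC27 DCB, against 13440 to 14110 in HGC27 DMSO, and from 2202 to 2554 in SNU16 DCB, against 1569 to 1570 in SNU16 DMSO. The fibroblast markers COL1A1, DCN and LUM made up most of the sum in HGC27, where their normalized values averaged 8430.3, 2940.2 and 3810.2 in DCB and 8565, 2206 and 2232 in DMSO. CD3D, a T cell marker, was at 0 in all 4 HGC27 libraries, and PTPRC, the pan-leukocyte CD45, was at 8.77 and 4.98 in HGC27 DCB, against 0.442 and 0.463 in HGC27 DMSO (adjusted p of the difference = 0.276).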

How the data were processed

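RNA was sequenced from 5 gastric cancer cell lines under DCB or DMSO, and the 8 libraries of HGC27 and SNU16 are compared here. The study text names another line in places where the labels name HGC27, and the labels were followed. The deposited table holds normalized counts that the authors made from reads with STAR 2.5.2b, featureCounts 1.5.1 and DESeq2 1.14.1, per the submitters' notes. These signal values are not whole numbers and were used as deposited, with no count model. The sources disagree on the library kit (poly(A) or 3′) and on the build (GRCh37 or GRCh38). The coordinates in the file are those of GRCh38. Whole-read multiples (within 0.02) made up only 36.4% to 44.5% of values, so counts were not recovered, and the precision of a value by depth is unknown.

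On log2(value + 1), limma 3.58.1 in R 4.3.3 was fitted to all 20 libraries with a mean for each of the 10 groups and a trended prior, and tested on simulated data first. Genes with a sum above 10 entered, and p-values were adjusted over 27350 genes. A difference was called at an adjusted p below 0.05 and an absolute size above 2, and lists were counted at an adjusted p below 0.05 alone. Responses of low genes are damped by the pseudocount of 1. A difference of responses can thus be understated, or overstated where only 1 of the lines is near 0. Where a group is listed at 0, values and an adjusted p are given without a difference.

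Named genes were the 20 with the smallest adjusted p in each direction whose HGC27 pairs all lay on 1 side of the SNU16 pairs, the 10 most opposite in each direction, up to 8 members of each of 34 lists by adjusted p, and genes the study names. Members and lists were chosen with earlier results of these data known. Promoter windows of 250 bases were read from hg38 by GENCODE 44 canonical starts, which matched 99.7% of tested genes. Virus genes, methylation data and tumor samples were not analysed here.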

Additional observations from a re-analysis of the deposited data

Results flagged for a closer look

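The contrast itself is a difference between lines, and each count below rests on the test of that difference. The response was larger in HGC27 for 732 genes and smaller for 484 with the limit on size, and for 2084 and 1483 without it. Opposite calls in the lines numbered 74 for genes that rose in HGC27 and fell in SNU16, and 82 for the reverse. Among opposite responses with no group at 0, the difference was 6.76 for MLC1, 3.91 for ANKRD65, 3.68 for SLC6A6, 3.01 for ARAP3, 2.57 for ANO1 and 1.70 for SBK1. In the other direction it was -6.41 for AFF3, -5.51 for TMEM163, -4.96 for FGF21, -4.50 for VIM, -4.06 for TGFB3, -3.43 for PHLDB2 and -3.19 for IL19. AFF3 had 0.931 and 0.368 in HGC27 DCB, against 28.4 and 8.74 in HGC27 DMSO, and 5.76 and 43.8 in SNU16 DCB, against 1.35 and 0.936 in SNU16 DMSO. ARAP3, a regulator of small GTPases, had 8.31 and 15.3 in HGC27 DCB, against 1.41 and 2.86 in HGC27 DMSO, and 80.9 and 88.9 in SNU16 DCB, against 159 and 182 in SNU16 DMSO. PHLDB2, a protein of the cell cortex, had 252 and 312 in HGC27 DCB, against 1020.4 and 933 in HGC27 DMSO, and 3.61 and 4.81 in SNU16 DCB, against 0 and 1.79 in SNU16 DMSO. With 2 libraries in a group, no library could be set against the spread of its own group.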

How the results depend on the processing

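Larger and smaller calls numbered 347 and 256 with a pseudocount of 5, 1260 and 864 with an absolute difference above 1, and 300 and 127 with limma's treat against a difference of 1. With a mean of at least 10 they numbered 452 and 349, and with the 8 libraries alone 547 and 363, of which 466 and 289 were among the 732 and 484. With libraries scaled to equal totals, 417 genes fell in SNU16, and the median HGC27 response over all genes was 0.154 in place of 0.0371. Opposite calls, higher in HGC27, numbered 49 under median-ratio scaling and 36 under quantile normalization. Leaving out 1 library at a time, with the lone library assumed to vary like the other groups, gave 626 to 735 larger and 377 to 455 smaller calls, 1650 to 1926 and 1123 to 1297 without the limit on size, 3128 to 3972 genes higher and 1798 to 2453 lower in HGC27, 743 to 1278 higher and 365 to 697 lower in SNU16, and 28 to 96 and 52 to 64 opposite calls. The count of 28 came without SNU16 DCB replicate 1 and that of 52 without HGC27 DCB replicate 1, and leaving out any of the 4 SNU16 libraries moved a SNU16 or an opposite count by more than 1.5 times. Replicate numbers name libraries and do not pair them, since deviations of same-numbered libraries correlated at -0.0349 in HGC27 and 0.0324 in SNU16. With a replicate block, 589 and 376 were called, 809 rose and 413 fell in SNU16, and 43 and 49 were opposite. No called difference of a named gene changed sign under any alternative except that of FTH1, at 0.0687 under quantile normalization against -0.24 with the values as deposited. Among 318 named genes, 31 calls were lost and 9 gained with the 8 libraries alone, and 117 were lost with treat. The call of DNMT1 was lost under 6 of 21 alternatives, with adjusted p from 0.0138 to 1. G1/S genes stayed between 45 and 53 larger and ATF4 targets between 32 and 37 smaller, treat aside. The causes were not tested. Depth is not known for single values, so low genes carry the least support.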

Other observations

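Further members of the lists counted above, not yet given with values, are described here. BNIP3, a mitochondrial protein of mitophagy and cell death, had 25.6 and 24.4 in HGC27 DCB, against 3.1 and 1.08 in HGC27 DMSO, and 399 and 357 in SNU16 DCB, against 507 and 543 in SNU16 DMSO (difference 3.63 ± 0.539, adjusted p = 4.46e-04 by limma). BIRC3, an inhibitor of apoptosis, had 3.12 and 1.35 in HGC27 DCB, against 9.01 and 4.64 in HGC27 DMSO, and 89.2 and 115 in SNU16 DCB, against 11.7 and 8.72 in SNU16 DMSO (difference -4.47 ± 0.599, adjusted p = 1.94e-04). BNIP3 thus had the larger response in HGC27 and BIRC3 the smaller. TNFRSF10D, a decoy receptor for the death ligand TRAIL, had 26.5 and 16.3 in HGC27 DCB, against 0 and 0 in HGC27 DMSO, and 113 and 121 in SNU16 DCB, against 108 and 85.04 in SNU16 DMSO (adjusted p = 1.49e-07).

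NLRX1, a mitochondrial regulator of innate immunity, had 17.8 and 22.97 in HGC27 DCB, against 0 and 0 in HGC27 DMSO, and 194 and 184 in SNU16 DCB, against 179 and 158 in SNU16 DMSO (adjusted p = 1.13e-07). MT3, a metallothionein, had 61.1 and 57.8 in HGC27 DCB, against 0 and 0 in HGC27 DMSO, and 0.885 and 1.36 in SNU16 DCB, against 0 and 0 in SNU16 DMSO (adjusted p = 1.22e-06). PADI3, an enzyme that citrullinates proteins of hair and epidermis, had 20.6 and 16.3 in HGC27 DCB, against 23.03 and 15.7 in HGC27 DMSO, and 100.7 and 104 in SNU16 DCB, against 7.59 and 6.92 in SNU16 DMSO (difference -3.70 ± 0.458, adjusted p = 9.38e-05).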
